A study of Mus musculus with 8 samples.

Results

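The genes described here are 10 genes of the interstitial matrix whose transcripts are followed in cardiac fibrosis. They are the fibrillar collagen chains Col1a1, Col1a2, Col3a1, Col5a1 and Col5a2, the network collagen chain Col8a1, the small leucine-rich proteoglycans Dcn, Lum and Bgn, and fibronectin, Fn1. They were chosen by name as matrix genes, and all 10 were found among the 25929 genes of the expression table and passed the filter on low values. RNA-seq was performed on 8 mouse hearts, 2 per group. The groups were the WT-Sham and WT-TAC hearts and, with the transgene, the Fat1-Sham and Fat1-TAC hearts, and a library is named by its group and number, as in WT-TAC1. The labels give the strain as C57BL/6 for the WT groups and Fat-1 for the Fat1 groups. The Fat1 mice carried the fat-1 transgene of C. elegans, an n-3 fatty acid desaturase that turns n-6 into n-3 polyunsaturated fatty acids, and the WT mice were their littermates. Mice were 3 months old when the transverse aorta was constricted (TAC), which raises the load on the left ventricle, and sham mice had the chest opened without constriction. Tissue is ventricular per the labels, whereas the methods name whole hearts. The promoter that drives the transgene and the sex of the mice were not given in the sources used here. The question the design addresses for these genes is whether pressure overload and the transgene alter matrix transcripts in the heart.

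Type I and type III collagen form the thick fibrils that hold cardiomyocytes and vessels in place, and type V collagen sits inside these fibrils and helps to start their assembly. Decorin, lumican and biglycan bind to collagen fibrils and influence their spacing and thickness, and biglycan and decorin also bind TGF-beta. Fibronectin forms a provisional matrix on which collagen is laid down, and in the heart these proteins are made mainly by fibroblasts, which raise their output in fibrosis. TGF-beta signalling through SMAD proteins is the pathway best known for driving collagen genes.

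Values are FPKM, fragments scaled to transcript length and to the mapped fragments of the library, as the authors deposited them. From the steps between low FPKM values, between 14163994 and 21218331 fragments per library were recovered, and the 10 genes held between 344 and 16819 fragments in a library, so that counting alone gives an SD of at most 5.39% of a value. Libraries of a group are separate samples per the labels, and with 2 against 2 an exact two-sided permutation test on 1 gene has 0.333 as its smallest p. Differences were therefore tested with limma on log2(FPKM + 1) over the 14442 genes that reached 1 FPKM in 2 libraries or more. A call needed a fold change above 1.5 in either direction together with an adjusted p (Benjamini-Hochberg) below 0.1, the study's own cutoffs.

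Some libraries stood apart from their group in markers of other cell types. WT-TAC1 held 9 of 10 thymocyte and T cell markers at a summed 2094 FPKM, against 1.22 to 3.76 FPKM in the other libraries, where 1 to 4 of the 9 were at 0, and its summed cardiomyocyte markers were 28763 FPKM against 52617 to 69165 FPKM. The 16 airway and alveolar markers summed to 1877 FPKM in WT-TAC1 and 4035 FPKM in WT-TAC2 and to 96.3 to 196 FPKM in the other 6 libraries. The 6 atrial markers, none of which was at 0 in any library, summed to 1051 and 3878 FPKM in WT-Sham, 2519 and 2517 FPKM in WT-TAC, 1370 and 28.3 FPKM in Fat1-Sham and 56.0 and 39.7 FPKM in Fat1-TAC. In the tissue as sampled, the 12 cardiomyocyte markers and the 14 cardiac fibroblast markers were above 0 in every library. The median gene was not level between groups. The median log2 fold change of all tested genes was 0.39 for WT-TAC against WT-Sham but -0.40 for Fat1-TAC against WT-TAC. For some genes the difference is also given relative to that median.

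The 10 genes spanned a wide range of levels. Their mean FPKM over the 8 libraries was 346 for Dcn, 168 for Bgn, 167 for Col3a1, 95.2 for Col1a2, 81.6 for Col1a1, 35.5 for Lum, 32.6 for Fn1, 17.8 for Col5a2, 12.4 for Col5a1 and 5.24 for Col8a1. Dcn was thus the most abundant, at rank 243 of all genes by mean FPKM, and Col8a1 the least, at rank 9335. Most of this order held inside the libraries, since Dcn was above Bgn, Col3a1 above Col1a2, Col1a1 above Lum, and Fn1, Col5a2, Col5a1 and Col8a1 followed each other in all 8 libraries. Bgn exceeded Col3a1 in 3 of 8 libraries, Lum exceeded Fn1 in 6 of 8, and Col1a2 exceeded Col1a1 in 7 of 8, so these neighbours were not separated beyond their spread.

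The levels depend on the transcript length that went into FPKM. The recovered lengths matched the mean length of a gene's annotated transcripts in 85.5% of 10893 genes with several transcripts, and the longest transcript in 0.615%. Where several lengths gave whole fragments, the one nearest that mean was taken, so a match to the mean was favoured. For Col1a1 that length was 1781 bases although its longest transcript has 5930, and at the longest transcript its mean level would be 24.5 FPKM in place of 81.6. At the longest transcript Lum, with its single annotated transcript, would pass Col1a1 and the other places in the order would stay. Ratios of FPKM between libraries do not depend on this length, whereas differences on log2(FPKM + 1) depend on it slightly for low genes.

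**Figure D1:**
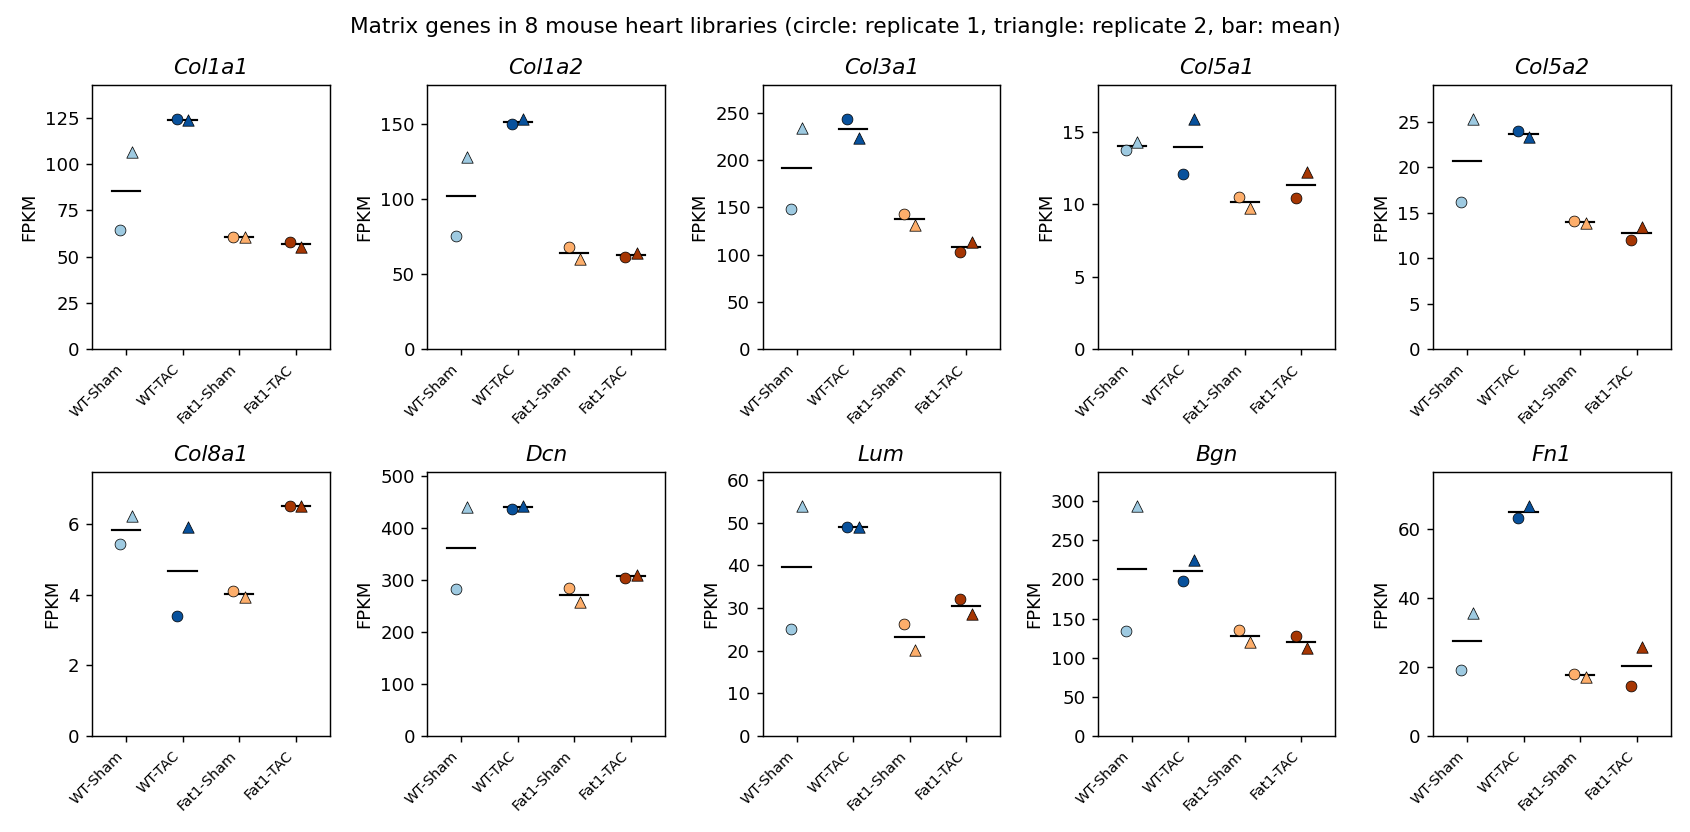
FPKM of each of the 10 matrix genes (vertical axis, linear and from 0) by group, with replicate 1 as a circle, replicate 2 as a triangle and the group mean as a bar. In 8 of the 10 genes WT-Sham2 was at least 1.5 times WT-Sham1, and the Fat1 libraries were close together except for Fn1 in Fat1-TAC.

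Type I collagen is a triple helix with chains from Col1a1 and Col1a2. Col1a1 (ENSMUSG00000001506) lies on chromosome 11 at 94936224 to 94953042 of GRCm38, on the plus strand. It was at 64.6 and 106 FPKM in WT-Sham, 124 and 124 FPKM in WT-TAC, 60.4 and 60.8 FPKM in Fat1-Sham, and 57.7 and 55.5 FPKM in Fat1-TAC. Both WT-TAC libraries were above both WT-Sham libraries, and both Fat1-TAC libraries were below both Fat1-Sham libraries, at 0.934 times the mean. Such opposite directions without overlap were found in 1 of the 10 genes and in 9.19% of all genes. Col1a2 (ENSMUSG00000029661, chromosome 6, 4504814 to 4541544) followed the same course, at 75.8 and 128 FPKM in WT-Sham, 150 and 153 FPKM in WT-TAC, 68.0 and 60.6 FPKM in Fat1-Sham, and 61.3 and 64.0 FPKM in Fat1-TAC. The Fat1 groups overlapped in this gene and the WT groups did not.

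Col3a1 encodes the chain of type III collagen, which is common in young and compliant tissue. Col3a1 (ENSMUSG00000026043, chromosome 1, 45311538 to 45349706) was at 149 and 234 FPKM in WT-Sham, 243 and 223 FPKM in WT-TAC, 143 and 132 FPKM in Fat1-Sham, and 103 and 113 FPKM in Fat1-TAC. WT-Sham2 fell between the WT-TAC libraries, so the WT groups overlapped, and both Fat1-TAC libraries were the lowest of the 8.

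Col5a1 and Col5a2 encode chains of type V collagen, which nucleates type I fibrils. Col5a1 (ENSMUSG00000026837, chromosome 2, 27886425 to 28039514) was at 13.8 and 14.3 FPKM in WT-Sham, 12.1 and 15.9 FPKM in WT-TAC, 10.5 and 9.78 FPKM in Fat1-Sham, and 10.4 and 12.2 FPKM in Fat1-TAC. Col5a1 varied less than the other collagens, and it overlaps 2 transcripts annotated on the other strand, which unstranded reads cannot tell apart. Fn1 also overlaps a gene on the other strand, Apol7d. Col1a2, Col3a1 and Col5a2 each overlap an annotated gene on their own strand. Col5a2 (ENSMUSG00000026042, chromosome 1, 45374321 to 45503282, minus strand) was at 16.2 and 25.3 FPKM in WT-Sham, 23.96 and 23.3 FPKM in WT-TAC, 14.1 and 13.9 FPKM in Fat1-Sham, and 12.0 and 13.5 FPKM in Fat1-TAC. WT-Sham2 was its highest library and both Fat1-TAC libraries were its lowest, as they were for Col3a1. Col3a1 and Col5a2 are separated by 24614 bases with no protein-coding gene between them and lie on opposite strands.

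Col8a1 encodes a short-chain, network-forming collagen of vessel walls and of injured tissue. Col8a1 (ENSMUSG00000068196, chromosome 16, 57624258 to 57754737, minus strand) was at 5.42 and 6.21 FPKM in WT-Sham, 3.40 and 5.92 FPKM in WT-TAC, 4.10 and 3.92 FPKM in Fat1-Sham, and 6.49 and 6.50 FPKM in Fat1-TAC. It was the only one of the 10 genes with its highest values in Fat1-TAC, above all other libraries, and with its lowest in WT-TAC1.

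Decorin, lumican and biglycan are small proteoglycans with leucine-rich repeats. Dcn (ENSMUSG00000019929, chromosome 10, 97479609 to 97518143) was at 284 and 441 FPKM in WT-Sham, 438 and 443 FPKM in WT-TAC, 286 and 259 FPKM in Fat1-Sham, and 304 and 311 FPKM in Fat1-TAC. WT-Sham2 lay with the WT-TAC libraries, and both Fat1-TAC libraries were above both Fat1-Sham libraries. Lum (ENSMUSG00000036446), which follows Dcn on chromosome 10 at 97565128 to 97572703, was at 25.1 and 53.9 FPKM in WT-Sham, 49.1 and 49.1 FPKM in WT-TAC, 26.2 and 20.2 FPKM in Fat1-Sham, and 32.2 and 28.5 FPKM in Fat1-TAC. Lum had its highest value in a sham heart, WT-Sham2, and its Fat1-TAC libraries were above its Fat1-Sham libraries, as those of Dcn were. Dcn and Lum share a strand, and the 46984 bases between them hold no protein-coding gene.

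Bgn (ENSMUSG00000031375, chromosome X, 73483602 to 73495933) showed the widest spread within a group. It was at 134 and 294 FPKM in WT-Sham, 198 and 225 FPKM in WT-TAC, 135 and 120 FPKM in Fat1-Sham, and 128 and 113 FPKM in Fat1-TAC. Both WT-TAC values lay between the 2 WT-Sham values, and the Fat1 groups overlapped.

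Fibronectin, an adhesive glycoprotein of early scar and provisional matrix, separated the WT groups most. Fn1 (ENSMUSG00000026193, chromosome 1, 71585520 to 71653200, minus strand) was at 19.2 and 35.8 FPKM in WT-Sham, 63.2 and 66.8 FPKM in WT-TAC, 18.0 and 17.2 FPKM in Fat1-Sham, and 14.7 and 25.8 FPKM in Fat1-TAC. The WT-TAC libraries were above the other 6, and the 2 Fat1-TAC libraries lay on both sides of the Fat1-Sham libraries.

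Promoters are shown because SMAD proteins, the effectors of TGF-beta, bind a short box that collagen genes can carry near their start. The RefSeq promoter table (GRCm38.p6) held 5 of the 10 genes, Col1a2, Col3a1, Col5a1, Col8a1 and Bgn. The sequences given are the 250 bases before the start of Col3a1, which was called lower in Fat1-TAC than in WT-TAC, of Col8a1, which was not lower there, and of Bgn, each 5′ to 3′ on its own strand. Capitals mark the SMAD box, GTCTG or its reverse complement CAGAC. Col3a1 (chr1:45311288-45311537, plus strand) and Bgn (chrX:73483351-73483600, plus strand) run with the genome and Col8a1 (chr16:57754738-57754987) is on the minus strand.
Col3a1: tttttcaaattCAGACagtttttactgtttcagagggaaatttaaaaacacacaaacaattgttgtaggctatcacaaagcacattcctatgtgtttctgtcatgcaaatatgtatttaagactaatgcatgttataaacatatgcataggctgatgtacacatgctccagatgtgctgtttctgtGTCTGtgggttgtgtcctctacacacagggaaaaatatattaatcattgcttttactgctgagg
Col8a1: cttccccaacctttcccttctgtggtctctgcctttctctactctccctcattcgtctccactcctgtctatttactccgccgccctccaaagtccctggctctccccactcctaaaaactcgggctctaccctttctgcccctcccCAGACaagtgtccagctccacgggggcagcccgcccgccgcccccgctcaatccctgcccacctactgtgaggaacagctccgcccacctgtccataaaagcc
Bgn: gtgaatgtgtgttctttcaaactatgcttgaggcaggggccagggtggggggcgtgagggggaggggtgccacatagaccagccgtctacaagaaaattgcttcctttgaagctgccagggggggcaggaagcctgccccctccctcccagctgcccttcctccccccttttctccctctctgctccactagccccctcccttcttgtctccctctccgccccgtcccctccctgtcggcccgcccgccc

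A SMAD box was present in 4 of the 5 promoters, all but Bgn, and in 42.1% of the 27025 promoters of the table. It stood at -239 to -235 and -64 to -60 in Col3a1 and at -103 to -99 in Col8a1, counted back from the start. A GC box, GGGCGG or CCGCCC, occurred in 4 of 5, all but Col3a1, and in 32.9% of all promoters. Col3a1 was the only one of the 5 with TATAAA on either strand, found in 12.97% of all promoters, and its window had a GC content of 35.2% against 60.8% for Col8a1 and 64.4% for Bgn. A CCAAT box, CCAAT or ATTGG, was in the Col1a2 promoter alone, against 34.5% of all. An E box, CANNTG, was in 3 of the 5, Col3a1, Col8a1 and Bgn, and in 66.0% of all promoters. In Col8a1 the SMAD box shared its last base with an E box (CAAGTG at -99 to -94). A match is a description and not a bound site.

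The spread within WT-Sham touches every comparison with that group. WT-Sham2 was at 1.55 to 2.18 times WT-Sham1 in 8 of the 10 genes, with Col5a1 and Col8a1 below 1.5 times. Between the 2 libraries of the other groups the median fold over the 10 genes was 1.04 (WT-TAC), 1.08 (Fat1-Sham) and 1.11 (Fat1-TAC), against 1.61 for WT-Sham. WT-Sham2 was at or above the lower WT-TAC library in 7 of the 10 genes and above both WT-TAC libraries in 4, whereas WT-Sham1 was at 1.04 to 1.36 times the Fat1-Sham mean. Between WT-Sham1 and WT-Sham2 the atrial markers went from 1051 to 3878 FPKM, the 8 heart valve and tendon markers from 39.1 to 93.5 FPKM and the fibroblast markers from 1549 to 1980 FPKM, and their part in the spread was not tested.

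In WT hearts, the comparison of TAC with sham asks whether matrix transcripts differ under pressure overload. None of the 10 genes was called higher in WT-TAC, where 0.921% of all tested genes were, and none was called lower (0.0138% of all genes). At an unadjusted p under 0.05 and the same fold, limma held 2 of the 10 genes higher, where 22.7% of all genes were, and 0 lower (1.11% of all genes). With limma-voom on the recovered fragments 0 were called, where 0.0415% of all genes were called higher and 0% lower. Of the 10 genes, 3 (Col1a1, Col1a2 and Fn1) had both WT-TAC libraries above both WT-Sham libraries, whereas 52.5% of all genes did.

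Fn1 had the largest difference between the WT groups. It was higher in WT-TAC by 1.27 on the log2 scale (SE 0.34, limma adjusted p = 0.175), and by 0.88 relative to the median gene. Col1a2 was higher by 0.62 (SE 0.24, adjusted p = 0.177) and Col1a1 by 0.57 (SE 0.22, adjusted p = 0.179). After subtraction of the median gene, 0.23 and 0.18 of these differences remained. Among the others, the log2 differences were 0.40 for Lum, 0.32 for Col3a1, 0.31 for Dcn, 0.22 for Col5a2, 0.09 for Bgn, -0.02 for Col5a1 and -0.30 for Col8a1, with adjusted p from 0.314 to 0.954. The median of the 10 genes was 0.32, below the 0.39 of all genes, and 4 of the 10 exceeded that median. Without WT-Sham2 the median of the 10 genes was 0.65, and without WT-Sham1 it was -0.02. Scaling by the median of ratios put the median at -0.16 and turned the direction of Dcn, Col5a2, Col3a1, Bgn and Lum.

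With WT-TAC2 left out, Fn1 was called higher, as were 45% of all genes, and Col8a1 lower, as were 6.31%. In that fit WT-TAC1 stood alone for its group and was assumed to vary like the other groups. With both WT-Sham2 and WT-TAC1 left out, a choice made after seeing the data, Col1a1 and Col1a2 were called higher, where 0.907% of all genes were. Each WT group was then 1 library, WT-TAC2 against WT-Sham1, assumed to vary like the Fat1 groups.

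**Figure D2:**
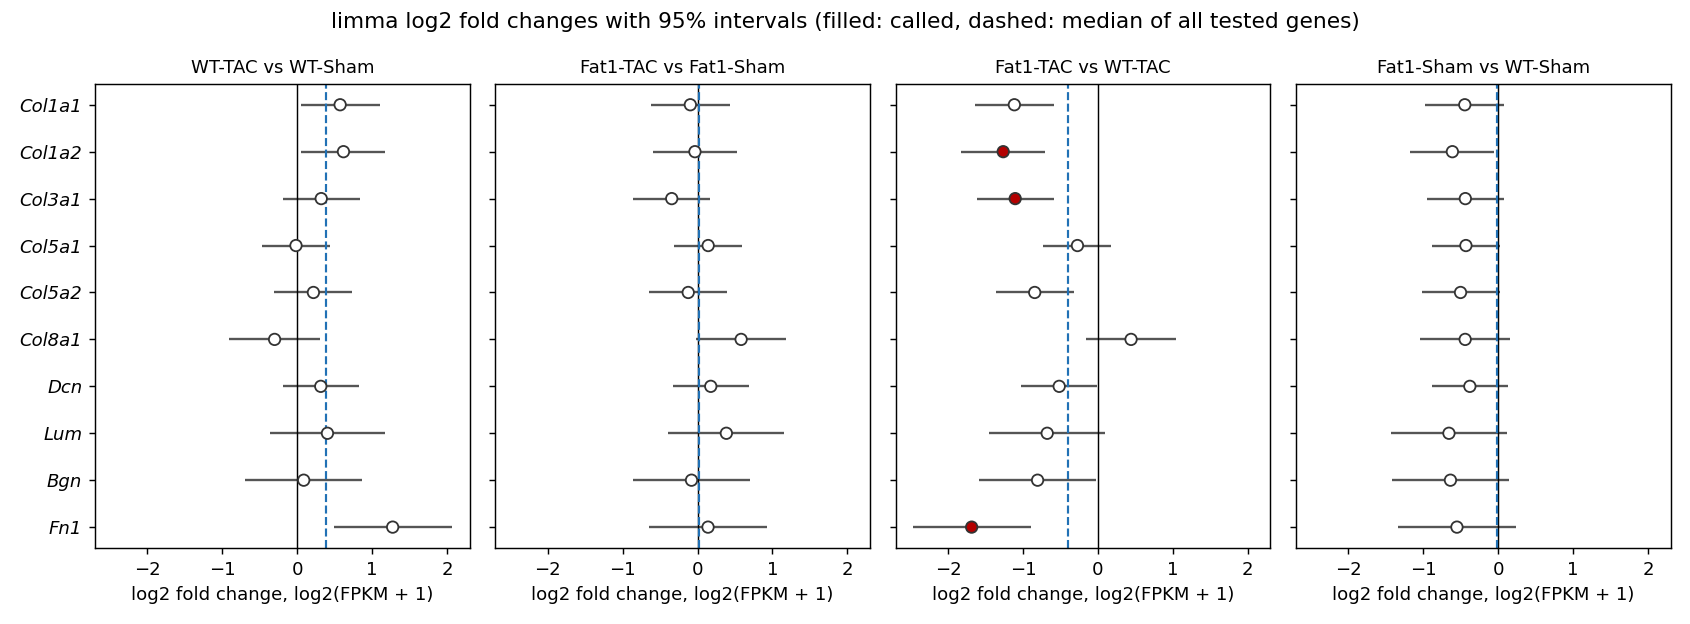
log2 fold changes of the 10 matrix genes on log2(FPKM + 1) in 4 comparisons, with 95% intervals from limma as horizontal lines, called genes filled in red, and the median of all tested genes as a dashed line. Col1a2, Col3a1 and Fn1 were called in Fat1-TAC against WT-TAC, no gene was called in the other 3 comparisons, and Col8a1 lay on the other side of 0 from the other 9 genes in Fat1-TAC against WT-TAC.

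Between the TAC groups, Col1a2, Col3a1 and Fn1 were called lower in Fat1-TAC than in WT-TAC, 3 of 10 genes where 1.39% of all tested genes were, and none was called higher (0.0346% of all genes). Fn1 was lower by 1.69 (log2 fold change -1.69, SE 0.34, limma adjusted p = 0.0997), Col1a2 had -1.26 (SE 0.24, adjusted p = 0.0901), and Col3a1 had -1.10 (SE 0.22, adjusted p = 0.0997). Col1a1 had -1.12 (SE 0.22) and missed the cutoff at an adjusted p of 0.102. As ratios of group means, WT-TAC stood at 3.21 times Fat1-TAC for Fn1, 2.42 times for Col1a2, 2.19 times for Col1a1 and 2.16 times for Col3a1.

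The proteoglycans and type V collagen differed less between the TAC groups. Col5a2 had a log2 fold change of -0.84 (SE 0.22, adjusted p = 0.144), Bgn -0.81 (SE 0.33, adjusted p = 0.167), Lum -0.68 (SE 0.33, adjusted p = 0.189), Dcn -0.52 (SE 0.22, adjusted p = 0.169) and Col5a1 -0.27 (SE 0.19, adjusted p = 0.313). Col8a1 had the opposite sign, at 0.44 (SE 0.26, adjusted p = 0.239). In 8 of the 10 genes both Fat1-TAC libraries were below both WT-TAC libraries, as in 57.1% of all genes, and in Col8a1 both were above, as in 9.33% of all genes. The median of the 10 genes was -0.82 against -0.40 for all genes. Relative to the median gene, Fn1 was at -1.28, Col1a2 at -0.86, Col1a1 at -0.71, Col3a1 at -0.70, Dcn at -0.11, Col5a1 at 0.13 and Col8a1 at 0.85.

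These 3 calls depended on the fit. At an unadjusted p under 0.05 and the same fold, 6 of the 10 genes were lower, where 23.5% of all genes were, and 0 higher (1.72% of all genes). With limma-voom, a pseudocount of 0.1, a filter at a mean of 5 FPKM, either rescaling of the libraries, only the 2 TAC groups in the fit, or the replicate number as a block, 0 of the 10 genes were called, although the direction of all but Col5a1 stayed. In these fits 0.0415% to 0.353% of all genes were called lower, against 1.39% in the main fit. Leaving out WT-TAC1 or any single Fat1 library also gave 0 calls, and leaving out either WT-Sham library gave 2, Col1a1 and Col1a2. Without WT-TAC2, 5 genes were called lower, where 46.8% of all genes were. Without both WT-Sham2 and WT-TAC1, 5 genes were also called lower, where 1.85% of all genes were, with WT-TAC2 alone for its group. Several marker lists differed between these groups. The 9 adipocyte markers, of which 1 was at 0 in Fat1-TAC1 and none in the other libraries, summed to 836 and 1201 FPKM in WT-TAC against 192 and 490 FPKM in Fat1-TAC. The atrial markers were 2517 to 2519 FPKM against 39.7 to 56.0 FPKM, the 9 macrophage markers, none at 0, 494 to 644 against 302 to 322 FPKM, and the airway markers 1877 to 4035 against 105 to 115 FPKM. Of the airway markers, 1 was at 0 in WT-TAC2, none in WT-TAC1, and 6 and 7 of 16 in the Fat1-TAC libraries. The part of these cell types in the matrix values was not tested.

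In fat-1 hearts, TAC and sham libraries lay close together. None of the 10 genes was called higher (0.00692% of all genes) or lower (0% of all genes) in Fat1-TAC than in Fat1-Sham. At an unadjusted p under 0.05 and the same fold 0 passed (1.33% of all genes higher and 0.533% lower), and limma-voom called 0, as for 0% of all genes. Col8a1 had the largest difference, at 0.58 (SE 0.26, 95% interval -0.02 to 1.19, limma adjusted p = 1). As a ratio of mean FPKM, Fat1-TAC was at 1.62 times Fat1-Sham. Col3a1 had the most negative one, at -0.35 (SE 0.22, 95% interval -0.86 to 0.17). Of the 10 genes, 3 (Col8a1, Dcn and Lum) had both Fat1-TAC libraries above both Fat1-Sham libraries, where 26.8% of all genes did, and 3 (Col1a1, Col3a1 and Col5a2) had both below, where 21.5% did. The median of the 10 genes was 0.05 and that of all genes 0.02. The 95% intervals of the 10 genes reached from -0.86 to 1.19, which includes changes of 1.5-fold in either direction.

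In the sham groups, all 10 genes had lower means in Fat1-Sham than in WT-Sham. The log2 differences were between -0.66 for Lum and -0.38 for Dcn, with a median of -0.47 against -0.01 for all genes. Neither direction held a call, as for 0% of all genes, with a limma adjusted p of 1 for each. At an unadjusted p under 0.05 and the same fold 1 of the 10 genes was lower, where 0.692% of all genes were, and 0 were higher (0.201%). With limma-voom 0 were called, as for 0% of all genes. In 7 of the 10 genes both Fat1-Sham libraries were below both WT-Sham libraries, where 16.5% of all genes were. The difference was larger against WT-Sham2, which was at 1.41 to 2.32 times the Fat1-Sham mean against 1.04 to 1.36 times for WT-Sham1, and without WT-Sham2 the median of the 10 genes was -0.12.

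The interaction asks whether the response to TAC differed between the genotypes. None of the 10 genes was called with a higher (0.00692% of all genes) or lower (0.0623%) response in fat-1 hearts, while at an unadjusted p under 0.05 and the same fold 1 was higher (0.609% of all genes) and 1 lower (6.38% of all genes). These were Col8a1, with an interaction of 0.88 (SE 0.36, limma adjusted p = 0.495), and Fn1, with -1.13 (SE 0.47, adjusted p = 0.495). Col1a1, Col3a1 and Col1a2 had interactions of -0.67, -0.67 and -0.65 and Lum had -0.02, where the median of all genes was -0.37. Averaged over both genotypes, TAC gave no call in either direction (0% of all genes), and 1 gene, Fn1, was higher at an unadjusted p under 0.05 and the same fold, at 0.71 (SE 0.24, limma adjusted p = 0.288), where 7.67% of all genes were higher and 0.464% lower. limma-voom called 0 of the 10 genes in both of these comparisons, as for 0% of all genes.

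Ratios between genes of the same library do not depend on its depth or scaling. Col1a1 and Col1a2 kept nearly the same proportion, at 0.806 to 1.003 in the 8 libraries, with the highest ratio in Fat1-Sham2. Col1a1 relative to Col3a1 was at 0.434 and 0.455 in WT-Sham, 0.422 and 0.461 in Fat1-Sham, 0.510 and 0.553 in WT-TAC, and 0.563 and 0.489 in Fat1-TAC. All 4 TAC libraries were thus above all 4 sham libraries, and the mean log2 ratio was higher after TAC by 0.26 in WT and 0.25 in fat-1 hearts, against an SD of 0.10 within groups. This is the only one of the 9 ratios formed in which the TAC and sham libraries did not overlap. How often other pairs of genes separate in this way was not counted, and the ratio was not tested.

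The ratio of decorin to collagen I differed in opposite directions in the genotypes. Dcn relative to Col1a1 was at 4.40 and 4.15 in WT-Sham and at 3.53 and 3.58 in WT-TAC, and at 4.73 and 4.26 in Fat1-Sham and 5.27 and 5.60 in Fat1-TAC. The log2 ratio was lower after TAC by 0.26 in WT and higher by 0.27 in fat-1 hearts, with an SD of 0.07 within groups. Col8a1 relative to Col1a1 did the same on a wider scale, from 0.0839 and 0.0584 in WT-Sham to 0.0274 and 0.0479 in WT-TAC, and from 0.0678 and 0.0646 in Fat1-Sham to 0.113 and 0.117 in Fat1-TAC. Fn1 relative to Col1a1 was at 0.298 and 0.336 in WT-Sham, 0.510 and 0.540 in WT-TAC, 0.298 and 0.284 in Fat1-Sham, and 0.254 and 0.466 in Fat1-TAC, where the 2 libraries disagreed. No test was made on the ratios, which were described because the pattern of the single genes was known.

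**Figure D3:**
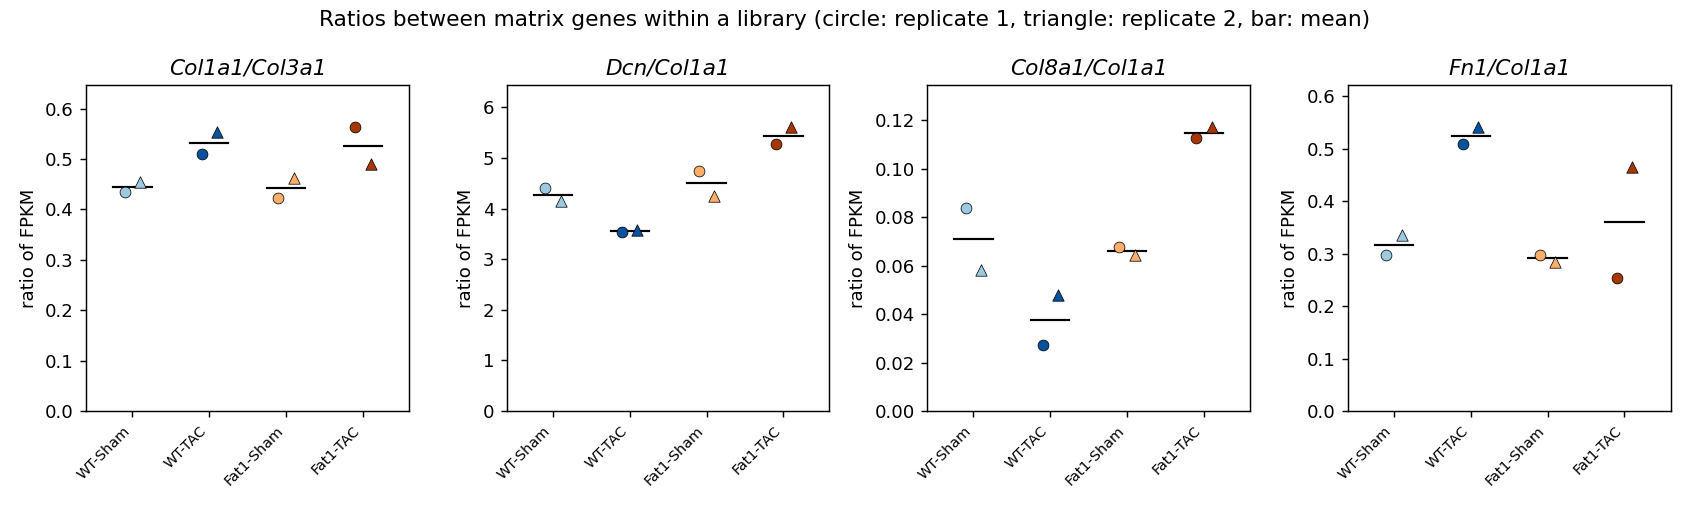
Ratios of FPKM between 2 matrix genes within a library (vertical axis, from 0) for Col1a1/Col3a1, Dcn/Col1a1, Col8a1/Col1a1 and Fn1/Col1a1, with replicate 1 as a circle, replicate 2 as a triangle and the group mean as a bar. Col1a1/Col3a1 was at 0.489 or more in the 4 TAC libraries and at 0.461 or less in the 4 sham libraries, and Dcn/Col1a1 was lower after TAC in WT and higher in fat-1 hearts.

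Summed over the 10 genes, the libraries fell into separate ranges. WT-Sham2, WT-TAC1 and WT-TAC2 held 1339, 1305 and 1329 FPKM, and the other 5 libraries held 697 to 787 FPKM, WT-Sham1 among them. In bulk tissue, more fibroblasts and more matrix RNA per fibroblast cannot be told apart. The 14 cardiac fibroblast markers (Gsn, Pdgfra, Tcf21, Dpt and others) summed to 1549 and 1980 FPKM in WT-Sham, 1826 and 2192 FPKM in WT-TAC, 1621 and 1382 FPKM in Fat1-Sham, and 1328 and 1372 FPKM in Fat1-TAC, and none of them was at 0. The 10 matrix genes relative to these markers stood at 0.508 and 0.676 in WT-Sham, 0.715 and 0.606 in WT-TAC, 0.472 and 0.504 in Fat1-Sham, and 0.549 and 0.541 in Fat1-TAC. After this division WT-Sham overlapped with each of the TAC groups, and both WT-TAC values stayed above both Fat1-TAC values. Gsn alone made 60.7% to 67.7% of the marker sum in a library. Relative to the other 13 markers, the 10 genes stood at 1.43 and 1.84 in WT-Sham, 2.20 and 1.88 in WT-TAC, 1.43 and 1.41 in Fat1-Sham, and 1.46 and 1.38 in Fat1-TAC. Both WT-TAC values were then above the other 6. The median log2 fold change of the 14 markers between the TAC groups was -0.33, against -0.40 for all genes.

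Scaling by the median of ratios moved WT-TAC1 most. Its factor was 1.52, which put its sum at 861 FPKM, near the 907 FPKM of WT-Sham1, and left WT-TAC2 at 1202 FPKM and WT-Sham2 at 1345 FPKM. The Fat1 libraries then held 772 to 818 FPKM. Within Fat1-Sham, where the atrial markers differed from 1370 to 28.3 FPKM, the sum of the 10 genes was 765 and 697 FPKM as deposited.

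**Figure D4:**
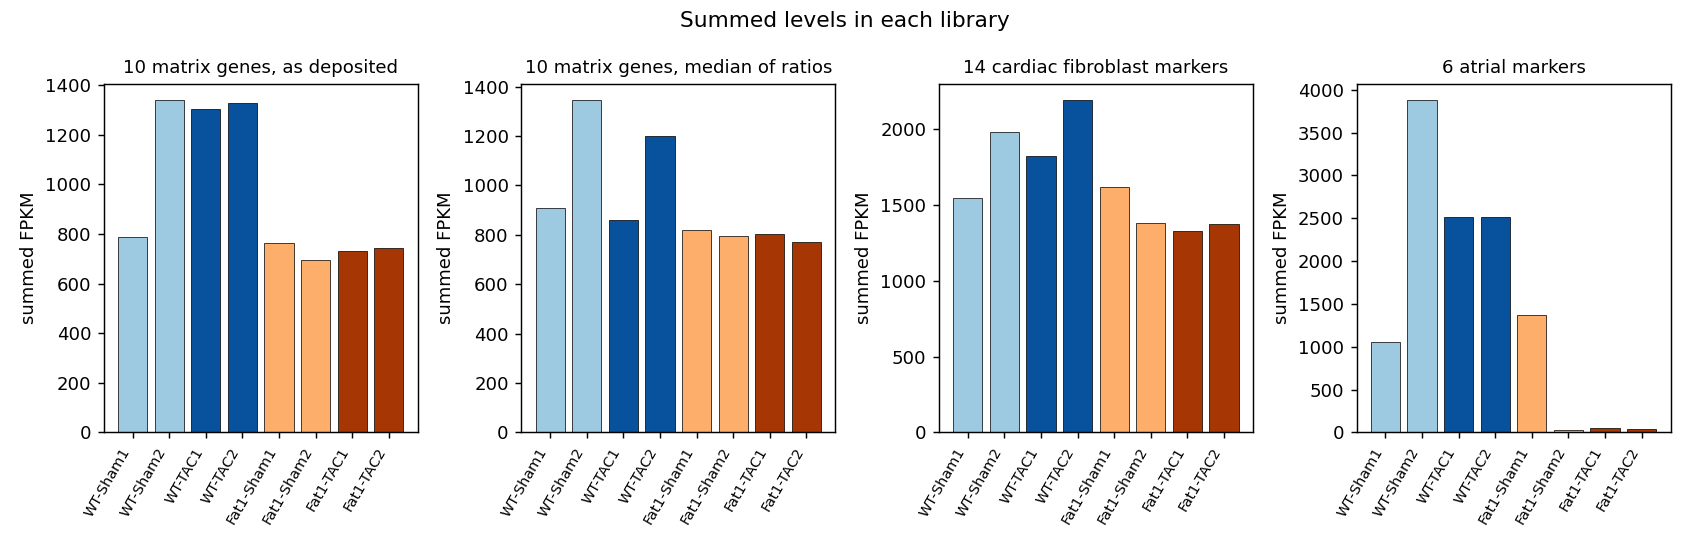
Summed FPKM in each library (bars from 0, coloured by group) of the 10 matrix genes as deposited, of the same genes after scaling by the median of ratios, of 14 cardiac fibroblast markers and of 6 atrial markers. WT-Sham2 and both WT-TAC libraries stood at 1305 FPKM or more as deposited, and WT-TAC1 moved to 861 FPKM on rescaling.

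Around the 10 genes, 119 other matrix genes in 8 lists were found, and 103 of them were tested. Of these 103, 0 were called in WT-TAC against WT-Sham, where the unadjusted p was below 0.05 at the same fold for 18 that were higher (17.5%, against 22.7% of all genes) and 1 that was lower (0.971%, against 1.11%). Their median log2 fold change was 0.35 against 0.39 for all genes. In Fat1-TAC against WT-TAC 2 were called lower, Ccn2 and Thbs1 (1.94%, against 1.39% of all genes), and 45 were lower at an unadjusted p under 0.05 and the same fold (43.7%, against 23.5% of all genes), with a median of -0.54 against -0.40 for all genes. In Fat1-TAC against Fat1-Sham 0 were called, with 1 higher (0.971%, against 1.33% of all genes) and 3 lower (2.91%, against 0.533%) at the unadjusted cutoff. limma-voom called 0 of the 103 in these comparisons, where it called at most 0.0415% of all genes in either direction.

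Ccn2, a matricellular protein induced by TGF-beta, was at 39.7 and 35.3 FPKM in WT-Sham, 50.9 and 52.9 FPKM in WT-TAC, 33.4 and 21.3 FPKM in Fat1-Sham, and 16.5 and 14.9 FPKM in Fat1-TAC. It fell by 1.67 on the log2 scale between the TAC groups (SE 0.22, limma adjusted p = 0.0384), with the Fat1-TAC libraries the lowest of the 8. Thbs1, which activates latent TGF-beta, was at 3.72 to 5.77 FPKM in the 4 Fat1 libraries and 11.8 to 18.2 FPKM in the 4 WT libraries. It was lower in Fat1-TAC than in WT-TAC by a log2 fold change of -1.49 (SE 0.27, adjusted p = 0.0836), and the genotypes did not overlap in either surgery.

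Among the collagens outside the 10 genes, Col6a1, a microfibril chain, was the most abundant of the 12 fibril-associated and microfibril collagens tested, with a mean of 44.7 FPKM, and Col4a1 of the 9 basement membrane collagens, with 173 FPKM. In the basement membrane list the median was 0.02 for WT-TAC against WT-Sham but -0.14 between the TAC groups, and in the fibril-associated list it was 0.52 and -0.84. After scaling by the median of ratios, the basement membrane median between the TAC groups was 0.18 and the fibril-associated one -0.49. Col9a2, Col9a3 and Col7a1 in these lists reached 1 FPKM only in WT-TAC libraries, and Col8a2 and Col12a1 only in WT libraries. The filter thus favoured their lower direction in Fat1-TAC. Of the other fibrillar collagens 3 of 6 were tested, led by Col5a3 at 4.77 FPKM, which differed most in Fat1-TAC against Fat1-Sham, by -0.40 (SE 0.25, limma adjusted p = 1), and Col27a1 differed most in WT-TAC against WT-Sham, by 1.28 (SE 0.25, limma adjusted p = 0.118). Col6a5 differed most in the fibril-associated list, by 1.56 in WT-TAC against WT-Sham (SE 0.40, adjusted p = 0.175) and by 0.71 in Fat1-TAC against Fat1-Sham (SE 0.40, adjusted p = 1). Col6a5 was at 0.117 and 0.148 FPKM in WT-Sham and 3.29 and 1.61 FPKM in WT-TAC, and passed the filter through TAC libraries alone. Its fat-1 difference rested on Fat1-TAC2, at 1.55 FPKM against 0.195 FPKM in Fat1-TAC1. In the basement membrane list Col18a1 differed most in WT-TAC against WT-Sham, by 1.10 (SE 0.49, adjusted p = 0.185), and Col4a4 in the fat-1 comparison, by 0.26 (SE 0.23, adjusted p = 1).

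The 10 other small leucine-rich proteoglycans tested are relatives of Dcn, Lum and Bgn. All 10 had lower means in Fat1-TAC than in WT-TAC as deposited, with a median of -0.86, and 8 of 10 did after scaling by the median of ratios, with a median of -0.58. None was called. Ogn was the most abundant, at a mean of 46.9 FPKM, and Chad, chondroadherin of cartilage and tendon, was at 0.588 and 8.25 FPKM in WT-Sham, 7.41 and 13.4 FPKM in WT-TAC, and 0.426 to 1.66 FPKM in the Fat1 libraries. Chad differed by 1.52 in WT-TAC against WT-Sham (SE 0.73, limma adjusted p = 0.199) and by 0.79 in the fat-1 comparison (SE 0.73, adjusted p = 1). WT-Sham2 again lay with the WT-TAC libraries.

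The 28 genes of collagen synthesis and processing, which hydroxylate, fold, trim and crosslink procollagen, had a median of 0.09 for WT-TAC against WT-Sham but -0.39 between the TAC groups, which was 0.04 after scaling by the median of ratios. Sparc, a collagen-binding secreted protein, was the most abundant, with a mean of 338 FPKM. Ppib, a prolyl isomerase of the endoplasmic reticulum, differed most in WT-TAC against WT-Sham, by 0.74 (SE 0.20, limma adjusted p = 0.175). Serpinh1, the collagen chaperone, was at 203 and 157 FPKM in WT-Sham, 111 and 147 FPKM in WT-TAC, 150 and 193 FPKM in Fat1-Sham, and 100 and 124 FPKM in Fat1-TAC. It was lower after TAC in both genotypes with no overlap, the reverse of Col1a1 in WT hearts, at -0.47 in WT (SE 0.23, adjusted p = 0.198) and -0.60 in fat-1 (SE 0.23, adjusted p = 1), and it was not called.

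The list of 17 TGF-beta genes held ligands, receptors, latent-binding proteins, Thbs1 and SMAD genes. Its medians were 0.46 in WT-TAC against WT-Sham, -0.01 in Fat1-TAC against Fat1-Sham, and -0.55 between the TAC groups (-0.15 after scaling by the median of ratios). Ltbp4, which tethers latent TGF-beta, was the most abundant, with a mean of 177 FPKM, Ltbp2 differed most in WT-TAC against WT-Sham, by 1.04 (SE 0.39, limma adjusted p = 0.176), and Smad3 in the fat-1 comparison, by -0.46 (SE 0.30, adjusted p = 1). The 14 collagen and fibronectin receptors tested had a median of 0.43 for WT-TAC against WT-Sham, and -0.62 between the TAC groups (-0.27 after scaling by the median of ratios). Itgb1, the common beta chain of these integrins, was the most abundant, with a mean of 221 FPKM, Itga4, an integrin chain of leukocytes, differed most in WT-TAC against WT-Sham, by 2.10 (SE 0.80, adjusted p = 0.177), and Itga8 in the fat-1 comparison, by -0.71 (SE 0.97, adjusted p = 1). The value of Itga4 rested on WT-TAC1, the library with thymocyte markers at 2094 FPKM, where it was at 24.2 FPKM, against 2.43 FPKM in WT-TAC2 and 0.923 and 1.45 FPKM in WT-Sham, and the part of those cells was not tested. Itga8 was at 12.04 FPKM in Fat1-Sham1, the Fat1-Sham library with the higher atrial markers, 2.08 FPKM in Fat1-Sham2, and 2.66 and 3.13 FPKM in Fat1-TAC, so that both Fat1-TAC libraries lay between the Fat1-Sham libraries. The 10 activated fibroblast genes tested had medians of 0.55, 0.19 and -0.86 in the same 3 comparisons as the TGF-beta genes, the last being -0.41 after scaling by the median of ratios. Acta2, which smooth muscle also expresses, was the most abundant of them and ranged from 47.7 to 212 FPKM between the WT-Sham libraries. Acta2 also differed most in the fat-1 comparison, by -1.33 (SE 0.60, adjusted p = 1), and Ccn5 in WT-TAC against WT-Sham, by 0.96 (SE 0.43, adjusted p = 0.187).

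Across the 8 libraries, 8 of the 10 genes correlated with each other, though their directions after TAC differed in fat-1 hearts. Pearson's r of log2(FPKM + 1) was 0.740 to 0.993 in the 28 pairs without Col5a1 and Col8a1, with a median of 0.906. By rank, Spearman's rho in these pairs was 0.476 (Col1a1 with Dcn and with Lum) to 0.976 (Col3a1 with Col5a2). Col5a1 had r of 0.654 to 0.736 with these 8 genes, and Col8a1 had r of -0.269 to 0.435 with the other 9, negative in 5. All values come from the same 8 libraries, which separate into the ranges given above, so that r measures mainly whether a gene shared that separation.

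Among 6904 genes with a mean of 10 FPKM or more, those most like the average of the 10 genes were Prelp, Ptgis, Ecm1, Mgp, Vim, Mmp2, Sulf1, P3h3, Comp and Lrp1, with r from 0.987 to 0.976. Prelp is a leucine-rich proteoglycan, Mmp2 a gelatinase, P3h3 a collagen prolyl hydroxylase and Mgp an inhibitor of calcification. Without WT-Sham2 and WT-TAC2, whose average lay farthest from its median, these genes had r of 0.953 or more. WT-TAC1 then still stood above the rest, and the genes had been picked for a high r, so this is not a separate check. For single genes, Rnase4 was most like Col1a1 and Col1a2, Fbln5 like Col3a1, Prss23 like Col5a2, Serpinf1 like Dcn, Ikbip like Lum and C1s1 like Fn1, with r of 0.981 to 0.992. Herpud1 was most like Col5a1, with r of 0.953, and Mlf1 most like Col8a1, with r of 0.967.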

How the data were processed

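RNA of ventricular tissue (per the labels) was sequenced on an Illumina platform, and the submitters' processing notes name HISAT2 and the build mm10 (GRCm38), with no version. The authors deposited FPKM per gene and library, and whether counting used strand is not given in the sources used here. Of the table, 25929 genes were used, 4 blank lines were dropped, and 25852 genes carried a symbol. Gene locations are those of GENCODE M21.

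The matrix genes and gene lists were chosen with earlier results of these data known. Fits used limma 3.58.1 (R 4.3.3) on log2(FPKM + 1), lmFit and eBayes with a trend, with 4 group means over all 8 libraries, so that fold changes of low genes are understated, and figures were drawn with matplotlib 3.10.9. Genes needed 1 FPKM in at least 2 libraries, and p-values were adjusted over 14442 genes. Of 24 lists with 274 entries, 270 entries were found. Named genes were the 10 matrix genes, the most abundant, the called and the most changed gene of each matrix list, and those most like the 10 genes, of which a single result is not reported here.

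Whole fragments were recovered from FPKM by finding, for each gene, a length at which all libraries gave whole numbers (tolerance 0.02). Of several such lengths, the one nearest the mean of the annotated transcripts was taken. They were whole for 96.5% to 97.0% of the values of genes with a single transcript, and the test on these fragments was limma-voom. On simulated data with a 4-fold change and the same spread in every library, limma recovered 197 of 199 changed genes in WT-TAC against WT-Sham. It called 4 genes in Fat1-TAC against Fat1-Sham, where nothing was changed. The recovery does not apply to smaller changes or to a group as spread as WT-Sham. The fit had no replicate block. Alternatives were another pseudocount, filter, scaling, sample choice or test, and leaving out libraries.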

Additional observations from a re-analysis of the deposited data

Results flagged for a closer look

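Without a call, 4 of 19 values examined (the 10 genes and 9 ratios between them) had both TAC libraries above both sham libraries in one genotype and below in the other. Of the 10 genes this was Col1a1 alone, where 9.19% of all genes did the same. For Col1a1 the response in fat-1 minus that in WT was -0.67 on the log2 scale, and the interaction test gave a limma adjusted p of 0.495. For the ratios the differences of the log2 responses were 0.308 for Col5a2/Col3a1, 0.539 for Dcn/Col1a1 and 1.74 for Col8a1/Col1a1, and these differences were not tested. Groups of 2 libraries were too small to look for single outlying libraries.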

How the results depend on the processing

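Of the 27 log2 fold changes given for single genes, 456 values were computed under alternatives: 380 kept direction and side of the threshold, 43 lost a call, 13 gained one and 20 turned direction, and the causes were not tested. Only the 3 results called in the main fit could lose a call, and results that stayed uncalled in the same direction count among the 380. The 3 calls in Fat1-TAC against WT-TAC became 0 with a pseudocount of 0.1, the filter at a mean of 5 FPKM, the median of ratios or quantile normalization. They also became 0 with only the groups compared, the replicate block or limma-voom. In these fits 0.0415% to 0.353% of all genes were called lower, against 1.39% in the main fit. With no filter 1 was called, where 1.32% of all genes were, and leaving out libraries also changed the count. Apart from genes lower in Fat1-TAC against WT-TAC, leaving out 1 library changed calls only in the fit without WT-TAC2. In that fit WT-TAC1 stood alone for its group, and many of all genes were called in the same comparisons. The fit without WT-Sham2 and WT-TAC1 left 1 library in each WT group and also changed calls. limma-voom and the fit without both libraries were chosen after seeing the data.

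The median of the 10 genes in WT-TAC against WT-Sham was -0.16 under the median of ratios, 0.69 without both libraries and -0.024 to 0.65 with 1 left out. In Fat1-TAC against WT-TAC it was -0.37 under the median of ratios, in the interaction 0.17 under the median of ratios, -0.72 without both libraries and -0.69 to 0.073 with 1 left out, and in Fat1-Sham against WT-Sham -0.12 without both libraries and -0.81 to -0.12 with 1 left out. In WT-TAC against WT-Sham, the median of ratios turned Dcn (-0.16), Col5a2 (-0.24), Col3a1 (-0.16), Bgn (-0.39) and Lum (-0.062), quantile normalization Col5a2 (-0.25) and Bgn (-0.061), and leaving out both libraries Col5a1 (0.19) and Col8a1 (0.11). With 1 library left out the ranges were -0.0030 to 0.63 for Dcn, -0.092 to 0.52 for Col5a2, -0.0046 to 0.64 for Col3a1, -0.20 to 0.16 for Col5a1, -0.47 to 0.65 for Bgn, -0.13 to 0.94 for Lum and -0.63 to 0.024 for Col8a1. In Fat1-TAC against WT-TAC, Col5a1 turned to 0.16 under the median of ratios and 0.24 under quantile normalization. Same-numbered libraries had correlations of deviations from -0.135 to 0.0236, and the replicate block gave 52 genes higher in WT-TAC against WT-Sham in place of 133 and 51 lower in Fat1-TAC against WT-TAC in place of 201. The 2 libraries per group, not the 344 or more fragments per gene, limit the precision.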
